A study of Mus musculus with 18 samples.

Results

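Whole mouse ovaries with and without Elavl2 were examined for 10 genes known from primordial germ cells and pluripotent cells: Pou5f1, Tfap2c, Dppa5a, Prdm1, Prdm14, Esrrb, Lin28a, Utf1, Sox2 and Nanog. The genes were chosen by name, and 9 of the 10 had a probe of that name on the array, while none carried the name Prdm14. Those 9 genes had 11 probes, and 8 of them passed the filter on dim probes and stand among 19299 genes tested. Nanog did not pass. The ovaries came from females, Elavl2 knockout (KO) or wild type (WT), of embryonic stages E15.5 and E17.5 and of newborns (P0, the day of birth), in 6 groups of 3 samples with 1 array each, 18 in all. The Elavl2 protein binds RNA and is one of the ELAV proteins. The labels give the genotype as knockout or wild type and the sample type as mixed. The allele, the strain, how many animals a sample held and whether samples came from separate animals are not given in the sources used here, so p-values cover the spread among the samples of a group, which may be technical.

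Primordial germ cells are the embryonic founders of eggs and sperm, and they keep several transcription factors of pluripotent cells active. In the fetal ovary these genes are known to be turned down as germ cells enter meiosis, and some of them, Pou5f1 among them, are known to come back in oocytes as primordial follicles form and grow around birth. Tfap2c, Prdm1 and Prdm14 encode the factors that specify primordial germ cells, Pou5f1, Sox2, Nanog and Esrrb belong to the transcription factor network of pluripotent cells, and Lin28a encodes an RNA-binding protein that blocks maturation of let-7 microRNAs.

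Each level below is a log2 signal relative to the array's own 75th percentile, so a difference of 1 is a doubling, and levels are compared between arrays for 1 probe and never between probes. Changes with an adjusted p under 0.05 (limma, Benjamini-Hochberg over all 19299 genes) are the ones called, from 1 model with the 6 groups and the run. The arrays came from 2 runs, each with its own scanner and scan day, and from 7 slides. All E15.5 arrays were of run A and all P0 arrays of run B, and E17.5 had replicate 3 of each genotype in run A and the others in run B. At E15.5, at P0 and in run B at E17.5 no slide held both genotypes of the stage, so slide and genotype cannot be told apart there, although KO replicate 3 of E15.5 and of P0 sat on a different slide from KO replicates 1 and 2. Slide 3 held both run A arrays of E17.5. The share of probes well above background was 62.5% to 75.2% per array, and the number of arrays limits the precision of every value. Elavl2 itself was at 3.31, 2.94 and 3.24 (log2 signal) in P0 KO ovaries, against 4.50, 4.59 and 4.48 in P0 WT ovaries. Its KO minus WT change was -0.11 ± 0.12 at E15.5 (SE, limma adjusted p = 0.75), -0.87 ± 0.12 at E17.5 (0.00448) and -1.36 ± 0.12 at P0 (9.09e-06). Its probes were not placed against the deleted part of the gene, which is not given in the sources used here.

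The probes that carry the results are shown by their first 30 bases, 5′ to 3′, from the scanner files, because each value belongs to 1 such probe and Dppa5a was read by a pair that lie apart in the gene.
Pou5f1 (chr17:35647280-35647340, mm9, + strand): aagtattgagtattcccaacgagaagagta
Tfap2c (chr2:172383860-172383919, mm9, + strand): tttatgcgagtgcacacagggtattgaaac
Dppa5a, brighter probe (chr9:78214902-78214961, mm9, - strand): tttgttacatcctagcaagatattcctgga
Dppa5a, other probe (chr9:78215574-78215633, mm9, - strand): gaagaacttatcgaggtcttcctttacggc
Esrrb (chr12:87862389-87862448, mm9, + strand): ttctgataatgacgttgtggctggaatgac
Lin28a (chr4:133559527-133559586, mm9, - strand): cacaagattgttactaggagacggacgaat
The array's probes are 60 bases long, and no transcript sequence was used here to place them in exons or untranslated regions.

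Promoter windows, from 250 bases before to 50 after the start of transcription, were in the RefSeq table (build GRCm38.p6) for 7 of the 10 genes, in 10 windows. Shown as the sequence beside those results are 1 of the 2 Pou5f1 windows and that of Prdm1, genes that differed between genotypes at P0. That of Lin28a, which did not pass the test there, is shown too. The other windows are not shown. Capitals mark every match, on either strand, to the letters searched: the octamer ATTTGCAT that POU factors bind, TAATTG or TAATTA or TAGTTG, which the oocyte factor NOBOX binds, the GC box GGGCGG, the half-site AAGGTCA that ESRRB binds, and CNCCTCAG, a motif of the meiosis factor STRA8.
Pou5f1 (chr17:35505782-35506081, GRCm38.p6, + strand): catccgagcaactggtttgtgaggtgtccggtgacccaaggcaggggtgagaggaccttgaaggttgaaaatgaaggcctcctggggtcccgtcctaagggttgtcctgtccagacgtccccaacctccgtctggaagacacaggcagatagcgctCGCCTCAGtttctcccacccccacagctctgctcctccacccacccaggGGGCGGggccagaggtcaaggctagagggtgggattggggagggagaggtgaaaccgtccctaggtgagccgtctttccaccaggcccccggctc
Prdm1 (chr10:44458699-44458998, GRCm38.p6, - strand): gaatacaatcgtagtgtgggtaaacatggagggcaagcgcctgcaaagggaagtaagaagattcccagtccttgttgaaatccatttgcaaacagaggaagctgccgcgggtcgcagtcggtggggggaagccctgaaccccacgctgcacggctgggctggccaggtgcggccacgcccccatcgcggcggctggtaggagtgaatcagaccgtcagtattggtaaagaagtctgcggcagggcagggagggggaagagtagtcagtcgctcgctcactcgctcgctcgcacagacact
Lin28a (chr4:134018767-134019066, GRCm38.p6, - strand): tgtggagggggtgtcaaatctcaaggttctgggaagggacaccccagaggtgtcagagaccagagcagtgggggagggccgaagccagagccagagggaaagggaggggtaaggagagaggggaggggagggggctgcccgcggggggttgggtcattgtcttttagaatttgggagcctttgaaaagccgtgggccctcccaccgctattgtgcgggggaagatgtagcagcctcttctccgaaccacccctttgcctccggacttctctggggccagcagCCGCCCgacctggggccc
The Pou5f1 window shown held CNCCTCAG starting at position -94 and a GC box at -45, counted with the start site as +1. The other Pou5f1 window held no match. Neither did the windows of Esrrb, which also differed at P0. The Lin28a window held 1 GC box on the opposite strand at position 33. No match to any of these letters was in the Prdm1 window. Of all 32851 windows in the table, 7.94% held CNCCTCAG, 35.7% a GC box, 17.9% a NOBOX element, 4.72% the half-site and 1.74% the octamer, and the last 3 were in none of the 10 windows of these genes. A match is a description of letters and not of binding.

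The question of the main comparison is how KO ovaries differed from WT ovaries at each stage. At P0, 5 of the 8 genes were lower in KO than in WT ovaries: Pou5f1, Tfap2c, Dppa5a, Esrrb and Prdm1. Sox2 passed the test in the other direction at signals not well above background, and Lin28a and Utf1 did not pass. Over all 19299 genes, 34.5% were called at P0, 16.1% lower and 18.3% higher. Higher genes were 53.1% of those calls, and 73.3% with the arrays scaled by their median. The 8 genes' median log2 change was -1.23, against 0.00 for all genes tested. Each of the 8 passed the filter through at least 1 group other than P0 WT. In whole ovaries, fewer cells of a type and less RNA per cell cannot be told apart.

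**Figure D1:**
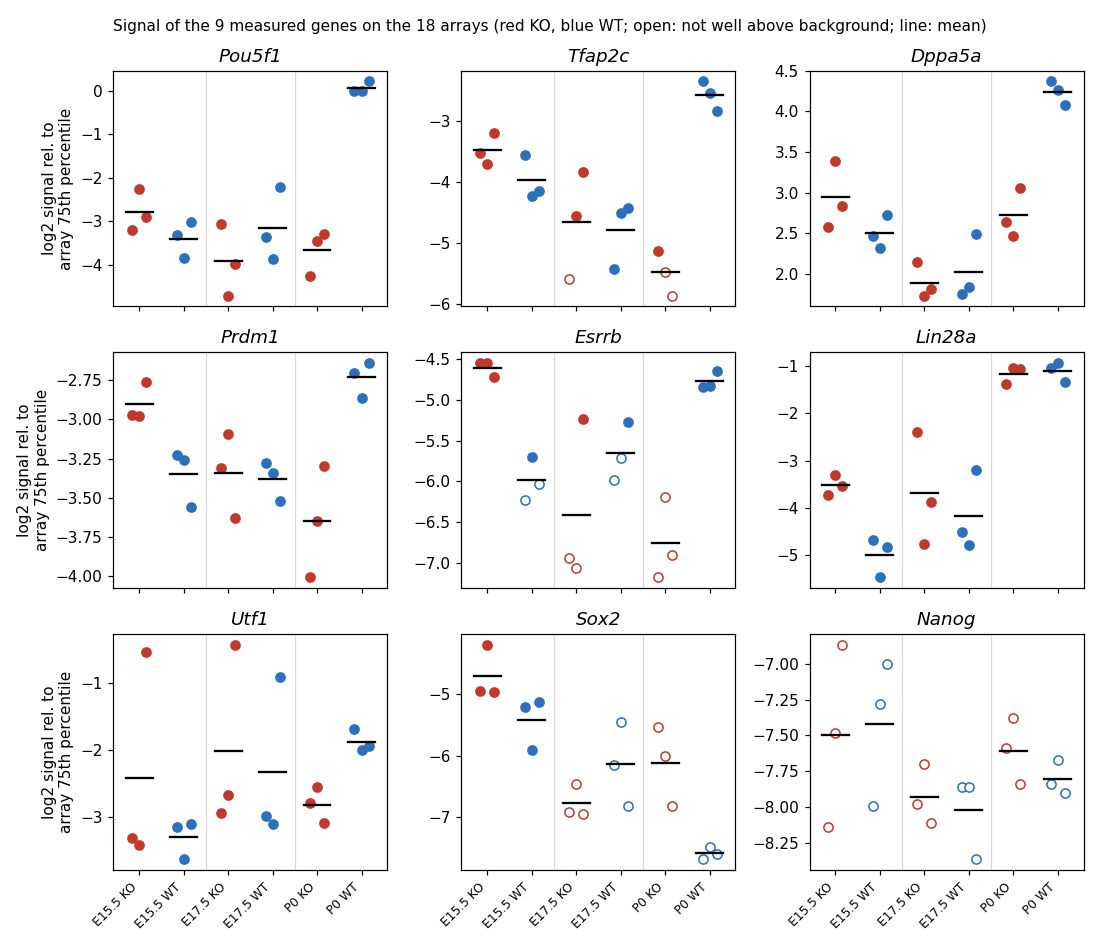
Log2 signal relative to the array's 75th percentile (y axis) of the 9 measured genes on each of the 18 arrays, by stage and genotype (x axis, KO left of WT at each stage); points are arrays, open where the probe was not well above background, and lines are group means. In P0 WT ovaries Pou5f1, Tfap2c and Dppa5a lie above every other array, while Lin28a is high in both genotypes at P0.

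Pou5f1, which encodes the POU-domain factor OCT4, had log2 signals of -4.26, -3.45 and -3.29 in P0 KO ovaries, against -0.02, 0.00 and 0.21 in P0 WT ovaries. The P0 WT arrays were above all 15 other arrays, and the P0 KO arrays lay within the range of the earlier stages. The log2 change was -3.73 ± 0.44 (SE), or 13.3-fold lower (limma adjusted p = 6.12e-05). Over the alternatives run it ranged from -3.92 to -2.71, so the size of the fold depends on the processing. Tfap2c, which encodes the factor AP-2 gamma, had -5.13, -5.47 and -5.86 in P0 KO ovaries, against -2.35, -2.54 and -2.83 in P0 WT ovaries. The groups did not overlap, and only 1 of the 3 KO arrays was well above background for this probe. Its log2 change was -2.91 ± 0.32, or 7.51-fold lower (adjusted p = 3.77e-05), and -1.24 with normexp background correction and quantile normalization. The size of the difference thus depends on how the background is treated.

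Dppa5a, which encodes a KH-domain protein made in pluripotent cells and germ cells, had log2 signals of 2.64, 2.47 and 3.06 in P0 KO ovaries, against 4.37, 4.27 and 4.08 in P0 WT ovaries. Again every WT array was above every KO array, and all 6 were well above background. The log2 change was -1.52 ± 0.23, or 2.86-fold lower (adjusted p = 0.000343). The other Dppa5a probe, tested in a fit over all 29203 probes, gave -1.51 ± 0.21 (adjusted p = 0.000189), from 0.17, 0.19 and 0.47 in KO ovaries and 1.89, 1.82 and 1.66 in WT ovaries, so the probes gave like changes.

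Prdm1, which encodes the repressor BLIMP1, had -4.01, -3.65 and -3.30 in P0 KO ovaries, against -2.70, -2.86 and -2.64 in P0 WT ovaries. The groups did not overlap, and the log2 change was -0.92 ± 0.15 (1.89-fold lower, adjusted p = 0.000681). Esrrb, which encodes an orphan nuclear receptor, had -7.18, -6.19 and -6.91 in P0 KO ovaries, against -4.84, -4.83 and -4.64 in P0 WT ovaries. No KO array was well above background and every WT array was, so the fold is a bound, at least 1.62-fold lower in KO ovaries, taking the brighter group's mean against the higher of the KO probe's own signal and the dimmest signal well above background on each array (adjusted p = 0.00012). The second Esrrb probe was well above background on 2 of the 18 arrays, both at E17.5, and was not tested.

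The genes not called lower in P0 KO ovaries differ in kind. Lin28a had log2 signals of -1.39, -1.05 and -1.07 in P0 KO ovaries, against -1.05, -0.95 and -1.34 in P0 WT ovaries. The genotypes overlapped, and the change of -0.06 ± 0.48 (adjusted p = 0.938) had a 95% interval of -1.10 to 0.98, which spans about a doubling either way. With the arrays scaled by their median the same change was 0.08. Utf1, which encodes a chromatin protein of pluripotent cells, had -2.80, -2.55 and -3.10 in P0 KO ovaries, against -1.69, -2.0 and -1.95 in P0 WT ovaries. The groups did not overlap, yet the change of -0.94 ± 0.55 was not called (adjusted p = 0.201), and leaving out 1 array, E15.5 KO replicate 3, called it (adjusted p = 0.0011).

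Sox2, the HMG-box partner of OCT4, was not well above background on any of the 6 P0 arrays. Its log2 signals were -5.53, -6.00 and -6.83 in P0 KO ovaries, against -7.69, -7.50 and -7.61 in P0 WT ovaries. The difference of 1.48 ± 0.34 was called (adjusted p = 0.00524), but with neither group well above background it gives no fold. With normexp background correction and quantile normalization it was 0.22 and was not called (adjusted p = 0.065). Nanog, which encodes a homeodomain factor of pluripotent cells, was not well above background on any of the 18 arrays, at -7.59, -7.38 and -7.84 in P0 KO ovaries, against -7.84, -7.67 and -7.90 in P0 WT ovaries.

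The 5 changes to a lower signal in P0 KO than in P0 WT ovaries were called under all alternatives run. With normexp and quantile normalization Esrrb gave -0.36 and Prdm1 -0.49.

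**Figure D2:**
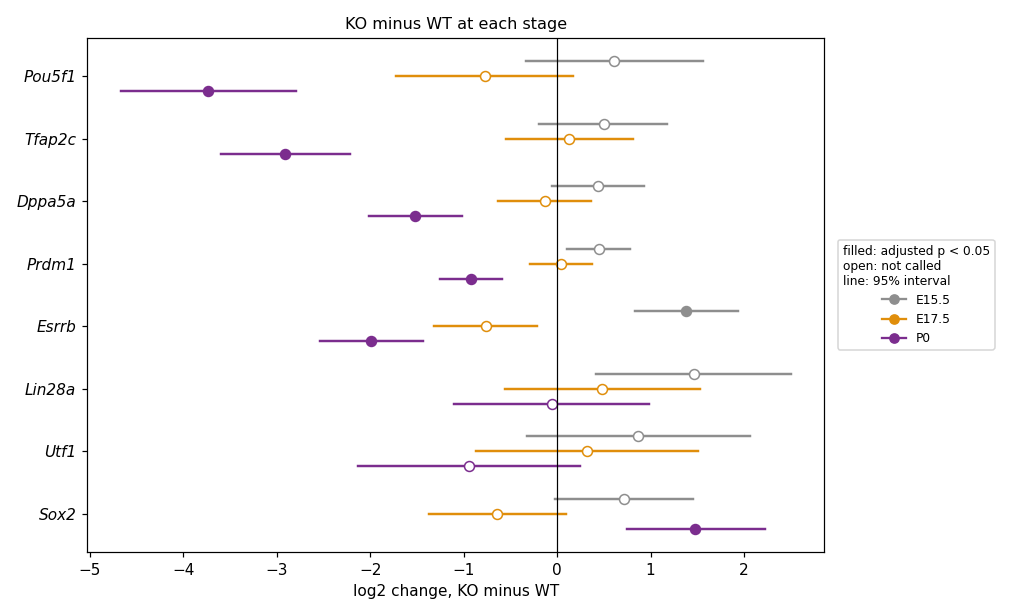
Log2 change of KO minus WT (x axis) for the 8 tested genes (y axis) at E15.5, E17.5 and P0, with 95% intervals; filled points were called at an adjusted p under 0.05. Esrrb is called at E15.5 and P0 with opposite signs, and no gene is called at E17.5. At P0 no KO array was well above background for Esrrb, nor any array for Sox2, so these 2 points are not measured folds.

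At E15.5, 1 of the 8 genes was called, Esrrb, which was higher in KO ovaries. Over all genes 1.62% were called at this stage, 0.969% higher, and the median change was 0.66 for the 8 genes, against 0.01 for all genes. Esrrb had log2 signals of -4.55, -4.55 and -4.72 in E15.5 KO ovaries, against -6.23, -5.70 and -6.04 in E15.5 WT ovaries. The KO arrays were close together and above all WT arrays, of which only replicate 2 was well above background. The change was 1.38 ± 0.26, or 2.61-fold higher (adjusted p = 0.0235). That call did not hold without the run term (adjusted p = 0.181), in a fit of the E15.5 arrays alone (0.077), without WT replicate 1, 2 or 3 (0.0852, 0.0584 and 0.0722) or without KO replicate 2 (0.0591), and normexp gave a change of 0.29. The count over all genes at this stage was 23 to 472 with 1 array left out, against 312 as reported, and lowest without WT replicate 2.

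Lin28a also separated the genotypes at E15.5, without passing the test. Its log2 signals were -3.73, -3.30 and -3.54 in KO ovaries, against -4.68, -5.46 and -4.82 in WT ovaries, with no overlap, and the change was 1.46 ± 0.48 (adjusted p = 0.162). It was called without E17.5 KO replicate 1 (adjusted p = 0.0116), an array of another stage that enters through the shared spread. Prdm1 (0.45 ± 0.15, adjusted p = 0.182) and Sox2 (0.71 ± 0.34, 0.357) also had groups without overlap and were not called. The share of all genes whose E15.5 groups did not overlap was not counted, so the lack of overlap is a description only. Sox2 was well above background on all 6 arrays at this stage and on no array later. Pou5f1 (0.61 ± 0.44), Tfap2c (0.50 ± 0.32), Dppa5a (0.44 ± 0.23) and Utf1 (0.87 ± 0.55) overlapped between the genotypes.

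At E17.5, 0 of the 8 genes were called by limma, where 4.16% of all genes were (32% of the calls higher, and 19.7% with median scaling). That background was 802 genes, and 141 (without KO replicate 2) to 1033 (without KO replicate 1) with 1 array left out. At an unadjusted p under 0.05 limma had 1 of them, Esrrb, with a change of -0.76 ± 0.26 (adjusted p = 0.111). Its log2 signals were -6.94, -7.06 and -5.24 in KO ovaries, against -5.98, -5.71 and -5.27 in WT ovaries. Replicate 3 of both genotypes, the run A arrays on slide 3, lay close together, and only these were well above background. The difference was 0.03 within run A (1 array each) and -1.16 within run B (2 arrays each). Pou5f1 changed by -0.77 ± 0.44 (adjusted p = 0.321), with -1.77 within run A and -0.27 within run B. Without E17.5 KO replicate 1 it was -1.39 and was called (adjusted p = 0.0406). Lin28a gave 0.48 ± 0.48 in the fit, -0.68 within run A and 1.06 within run B, so its sign differed between the runs. E17.5 KO replicate 1 had the highest Lin28a and the lowest Tfap2c signal of the 6 E17.5 arrays. The median change of the 8 genes was -0.05 at E17.5, against 0.05 for all genes. Averaged over the 3 stages, Pou5f1, Tfap2c, Dppa5a and Esrrb were lower in KO ovaries, 4 of the 8 genes, where 25.8% of all genes were called and 11.8% lower. By stage (E15.5, E17.5 and P0) the change was 0.61, -0.77 and -3.73 for Pou5f1 and 0.50, 0.13 and -2.91 for Tfap2c. For Dppa5a it was 0.44, -0.13 and -1.52, and of these values only those at P0 were called. The averaged calls of Pou5f1 (-1.30) and Tfap2c (-0.76) held in all 29 alternatives. That of Dppa5a (-0.40) was lost in 17 of 29 and that of Esrrb (-0.46, -0.06 with normexp) in 21 of 29, and the Esrrb average combines a higher value at E15.5 with a lower one at P0.

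The next comparison is between P0 and E17.5 ovaries within a genotype, the step over birth. In WT ovaries 6 of the 8 genes rose, Pou5f1, Lin28a, Tfap2c, Dppa5a, Esrrb and Prdm1, and Sox2 fell at signals not well above background. Over all genes 43.3% were called, 22.1% higher and 21.2% lower (51.1% of the calls higher, and 31.4% with median scaling). In KO ovaries 2 of the 8 were called, Lin28a and Dppa5a, both higher, where 37.2% of all genes were called, 18.2% higher. P0 WT was the highest of the 6 groups for Pou5f1, Tfap2c and Dppa5a, without overlap with the next group. It was also the highest for Lin28a, Prdm1 and Utf1, overlapping the next group. The share of all genes with P0 WT highest was not counted, so this order is a description only.

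Pou5f1 changed by 0.47 ± 0.46 between E17.5 and P0 in KO ovaries (adjusted p = 0.465), against 3.43 ± 0.46 in WT ovaries (10.8-fold higher, adjusted p = 0.000117). Its E17.5 log2 signals were -3.06, -4.71 and -3.99 in KO ovaries, against -3.36, -3.87 and -2.22 in WT ovaries. The P0 KO arrays overlapped the E17.5 KO arrays, and the P0 WT arrays lay above all E17.5 arrays. Over the alternatives run the WT rise of Pou5f1 ranged from 2.54 to 3.68. Tfap2c changed by -0.53 ± 0.34 in KO ovaries (adjusted p = 0.241), against 2.51 ± 0.34 in WT ovaries (5.69-fold higher, adjusted p = 0.000111). At E17.5 it was at -5.59, -4.55 and -3.83 in KO ovaries, against -5.42, -4.51 and -4.42 in WT ovaries. Without E17.5 KO replicate 1, the KO changes were called for both, at 1.24 for Pou5f1 (adjusted p = 0.0266) and -0.98 for Tfap2c (0.0379).

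Dppa5a rose in both genotypes, by 0.93 ± 0.24 in KO ovaries (1.90-fold, adjusted p = 0.00932) and by 2.31 ± 0.24 in WT ovaries (4.96-fold, adjusted p = 2.03e-05). Its E17.5 log2 signals were 2.14, 1.73 and 1.81 in KO ovaries, against 1.75, 1.84 and 2.49 in WT ovaries. The E17.5 genotypes overlapped while the P0 genotypes did not. The KO rise was at the threshold without E17.5 KO replicate 2 (adjusted p = 0.0505). Lin28a rose by 2.70 ± 0.51 in KO ovaries (6.52-fold, adjusted p = 0.00131) and by 3.25 ± 0.51 in WT ovaries (9.48-fold, adjusted p = 0.000333). Its E17.5 signals were -2.40, -4.76 and -3.87 in KO ovaries, against -4.51, -4.78 and -3.19 in WT ovaries, all below the P0 arrays of both genotypes. The KO rise was 2.07 without E17.5 KO replicate 2 and 3.75 without E17.5 KO replicate 1, and the WT rise 2.94 to 3.54 with 1 array left out, so the order of the rises is not settled.

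Esrrb changed by 0.04 ± 0.27 over birth in KO ovaries (adjusted p = 0.92), against 1.27 ± 0.27 in WT ovaries (adjusted p = 0.00252). In WT ovaries 1 of 3 arrays at E17.5 and all 3 at P0 were well above background. In KO ovaries 1 of 3 arrays at E17.5 and no array at P0 was. Without the run term the WT rise of Esrrb was not called (adjusted p = 0.0888). Prdm1 changed by -0.42 ± 0.16 in KO ovaries (adjusted p = 0.0597), against 0.54 ± 0.16 in WT ovaries (1.46-fold higher, adjusted p = 0.0168). The WT rise of Prdm1 lost its call in 4 of 30 alternatives, which were array median scaling and leaving out E17.5 WT replicate 1 or 2 or P0 WT replicate 3 (adjusted p = 0.05 to 0.076), and the KO change was called without P0 KO replicate 3 (-0.59, adjusted p = 0.0091). Sox2 gave 0.44 ± 0.36 in KO ovaries and -1.68 ± 0.36 in WT ovaries (adjusted p = 0.00259), all at signals not well above background. With normexp the WT rises were 1.12 for Tfap2c, 1.92 for Lin28a, 0.24 for Esrrb and 0.31 for Prdm1, and the KO rise of Lin28a was 1.62.

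**Figure D3:**
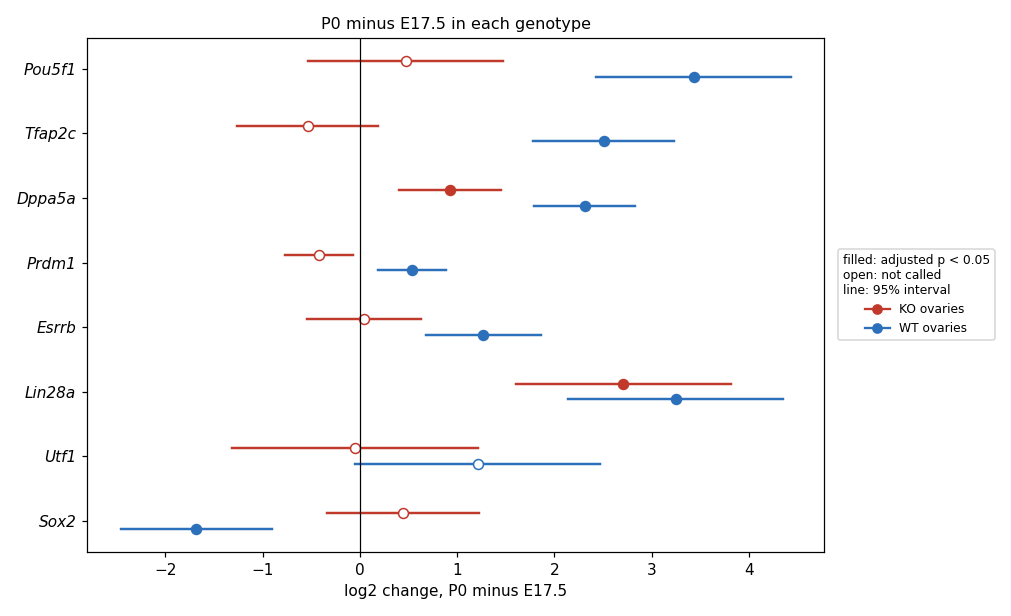
Log2 change of P0 minus E17.5 (x axis) for the 8 tested genes (y axis) in KO ovaries (red, upper point of each pair) and WT ovaries (blue), with 95% intervals; filled points were called. Lin28a rises in both genotypes by 2.70 and 3.25, whereas Pou5f1 changes by 0.47 in KO and 3.43 in WT ovaries.

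Whether the step over birth differed between the genotypes was tested directly, as KO change minus WT change. For 6 of the 8 genes it did, where 10.4% of all genes were called, 6.12% with a lower and 4.28% with a higher value (41.1% of the calls higher, and 68.7% with median scaling). The difference was -3.04 ± 0.45 for Tfap2c (adjusted p = 0.00203), -2.96 ± 0.62 for Pou5f1 (0.0114), -1.38 ± 0.32 for Dppa5a (0.0189), -0.96 ± 0.22 for Prdm1 (0.0165), -1.23 ± 0.36 for Esrrb (0.0488) and 2.12 ± 0.48 for Sox2 (0.017). The Esrrb value was next to the threshold and lost its call in 25 of 30 alternatives. Sox2, not well above background on any of the 12 arrays, was not called with normexp (0.32, adjusted p = 0.104). With the replicate number as a block 3 of the 8 were called, and Dppa5a (adjusted p = 0.0718), Sox2 (0.0527) and Esrrb (0.108) were not. For Lin28a the difference was -0.54 ± 0.68 (adjusted p = 0.643), with a 95% interval of -2.01 to 0.93, so a difference as large as that of Dppa5a lies inside it.

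Between E15.5 and E17.5 the samples also change run, so these stage changes rest on the E17.5 arrays of replicate 3, which were of run A and both on slide 3. In KO ovaries 4 of the 8 genes fell in that model, Sox2, Esrrb, Dppa5a and Prdm1, where 21.8% of all genes were called, 9.98% lower (54.1% of the calls higher, and 25.7% with median scaling). Sox2 was at -6.92, -6.46 and -6.96 in E17.5 KO ovaries, against -4.94, -4.19 and -4.96 in E15.5 KO ovaries, at least 2.40-fold lower (adjusted p = 0.00106). In WT ovaries it was at -6.15, -5.45 and -6.83 at E17.5, against -5.20, -5.91 and -5.13 at E15.5, and the change of -1.17 ± 0.42 was not called (adjusted p = 0.0552), though 8 of 28 alternatives called it (-1.64 to -1.17). Sox2 was thus no longer well above background in either genotype at E17.5.

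Dppa5a changed by -0.86 ± 0.28 between E15.5 and E17.5 in KO ovaries (adjusted p = 0.044), a call lost in 15 of 29 alternatives. Without E17.5 KO replicate 3 it was -0.32 and without E15.5 KO replicate 2 it was -0.63. Prdm1 changed by -0.65 ± 0.19 (adjusted p = 0.0269), a call lost in 4 of 29, among them leaving out E17.5 KO replicate 3 (-0.51). In WT ovaries 2 genes were called, Utf1 (2.46 ± 0.67, adjusted p = 0.0185) and Esrrb (1.12 ± 0.31, adjusted p = 0.021), where 26.4% of all genes were, 15.3% higher (58% of the calls, and 28% with median scaling). Without E17.5 WT replicate 3 the count over all genes was 1049, against 5090 as reported. Utf1 was at -2.99, -3.11 and -0.92 in E17.5 WT ovaries, the last on slide 3, against -3.15, -3.63 and -3.11 in E15.5 WT ovaries. Esrrb was well above background on 1 of 3 WT arrays at each stage, and the stages overlapped. Utf1 lost its call in 6 of 29 alternatives and Esrrb in 7 of 29. Without the run term they were 0.96 (adjusted p = 0.396) and 0.34 (0.557). In KO ovaries Esrrb was well above background on all 3 arrays at E15.5 and on replicate 3 alone, of slide 3, at E17.5. Esrrb changed there in the other direction, by -1.03 ± 0.31 (adjusted p = 0.0348), a call lost in 9 of 29 alternatives. Without E17.5 WT replicate 3 it was -0.63 (adjusted p = 0.171), without E17.5 KO replicate 3 -1.82, and with the replicate block -0.98 (0.107). The difference between the genotypes in this step was -2.14 ± 0.36 for Esrrb (adjusted p = 0.0391), where 0.306% of all genes were called, 0.269% with a lower value (11.9% of the calls higher, and 26.3% with median scaling), and it lost its call in 19 of 30 alternatives.

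Utf1 was brightest on the arrays of 1 slide. Its log2 signal was -0.54 in E15.5 KO replicate 3, -0.44 in E17.5 KO replicate 3 and -0.92 in E17.5 WT replicate 3, the 3 arrays of slide 3, and -3.63 to -1.69 on the other 15 arrays. All 3 were above every other array, across stages and genotypes. Over all genes, 976 of 19299 (5.07%) were above all other arrays on these 3, and 82 were below. The model's run term for Utf1 was -2.25 ± 0.58 (run B minus run A). Without the 3 arrays of slide 3, an alternative chosen after seeing this, the KO minus WT change of Utf1 at P0 was -0.94 (adjusted p = 0.00151), its WT change over birth was 1.17 (0.000634), and the difference between genotypes in that step was -1.18 (0.0205). Leaving out E15.5 KO replicate 3 alone sufficed for the P0 call, while without either E17.5 array of the slide alone the change was not called (adjusted p = 0.216 each). In a fit of only the stages compared, the P0 change was -0.94 (adjusted p = 0.0108). What sets slide 3 apart was not tested.

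**Figure D4:**
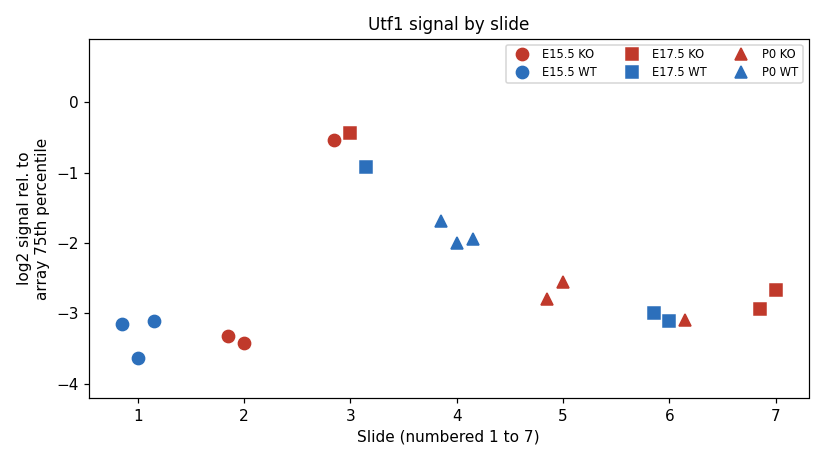
Log2 signal of Utf1 relative to the array's 75th percentile (y axis) on each array, by slide (x axis); colour gives the genotype (red KO, blue WT) and shape the stage. The 3 arrays of slide 3 lie at -0.92 to -0.44, above the range of -3.63 to -1.69 on all other slides.

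The 8 genes were set beside 54 other primordial germ cell and pluripotency genes, of which 45 were tested. At P0, where 18.3% of all genes were called higher and 16.1% lower, the test called 12 of those 45 higher and 8 lower. The other 25 were not called, the median change of the 45 was 0.05, and with median scaling 17 were higher and 6 lower. Those with the smallest adjusted p were Hhex (1.41 ± 0.08), Tex19.1 (1.06 ± 0.15) and Klf5 (0.88 ± 0.16), which were higher in KO ovaries, and Bmp4 (-0.77 ± 0.11) and Sox15 (-1.25 ± 0.21), which were lower. Hhex encodes a homeobox factor, Tex19.1 a germ cell protein that restrains transposons, Klf5 a zinc finger factor, Bmp4 the ligand that induces primordial germ cells and Sox15 an HMG-box factor. At E17.5, where 4.16% of all genes were called, 2 of the 45 were higher in KO ovaries and none lower. These were Hhex (0.42 ± 0.08) and Alpl, the alkaline phosphatase used to stain primordial germ cells (0.42 ± 0.11). At E15.5 limma called 0 of the 45, and 1.62% of all genes.

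Germ cell markers were measured on the same arrays. Of 12, 3 were higher and 1 lower in KO than in WT ovaries at P0, where 18.3% of all genes were higher and 16.1% lower. The markers' mean log2 signal was 2.52 to 2.86 on the P0 KO arrays, against 2.44 to 2.60 on the P0 WT arrays. Ddx4, the germ cell RNA helicase gene, changed by 0.21 ± 0.14 (adjusted p = 0.252), and Dazl by 0.86 ± 0.13 (adjusted p = 0.00035). Of 16 oocyte growth genes 12 were lower in P0 KO ovaries and none higher. The mean signal of the 16 was -0.77 to -0.28 on the KO arrays, against 2.29 to 2.54 on the WT arrays. Gdf9, an oocyte growth factor gene, changed by -3.30 ± 0.27 and Zp3, a gene of the egg coat, by -5.32 ± 0.42, while Nobox (-0.46 ± 0.37) and Figla (-0.05 ± 0.20), which encode oocyte transcription factors, did not pass. Of 18 meiotic prophase genes 10 were higher in P0 KO ovaries and 1 lower. Stra8 among them, the gene of the meiosis factor named above, changed by 3.26 ± 0.43 (adjusted p = 0.000132). Of 11 pregranulosa markers 6 were higher and none lower, and of 8 endothelial markers 6 were higher and none lower, where 18.3% of all genes were higher. With median scaling the higher calls were 11 of 18, 7 of 11 and 7 of 8. The part of these cell types in the changes of the 8 genes was not tested.

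**Figure D5:**
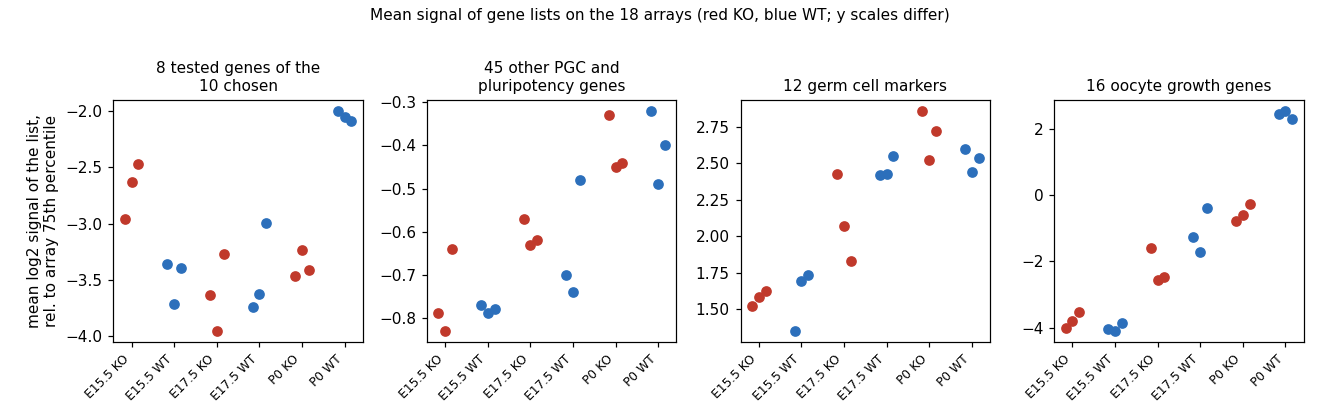
Mean log2 signal relative to the array's 75th percentile (y axis, scales differ between panels) of 4 gene lists on each of the 18 arrays, by stage and genotype (x axis, KO left of WT). The 12 germ cell markers overlap between KO and WT at P0, while the 16 oocyte growth genes are at -0.77 to -0.28 in P0 KO and 2.29 to 2.54 in P0 WT ovaries.

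The 3 genes whose log2 signal over the 18 arrays was most like that of Pou5f1, by Pearson's r among 15269 genes with a symbol, were Aspg (0.945), Dtx2 (0.943) and Krt87 (0.941). For Lin28a they were Kpna2, an importin gene (0.954), Hsd3b2 (0.953) and Nprl2 (0.950). Dppa5a was most like Gdap1 (0.967) and Ttc39b (0.944). Tfap2c was most like Spon1 (0.932), Esrrb most like Zap70 (0.930), Prdm1 most like Mcee (0.857) and Sox2 most like Rhox13 (0.921). These values describe 18 arrays that share stage, run and slide, and the P0 WT arrays stand apart from the rest for Pou5f1, Tfap2c and Dppa5a.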

How the data were processed

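Cy3-labelled cRNA of 18 whole ovary samples was hybridised to 1-colour Agilent arrays of design 014868. The deposited scanner files hold an intensity per spot with the background subtracted, which the authors obtained from Agilent Feature Extraction (version 10.7.3.1 per the file headers, 9.5 per the submitters' processing notes, a difference not settled here). In the deposited series matrix the log2 values were equal to the log2 scanner signal plus 1 constant per array, and it was used as an alternative.

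Control spots and outlier spots were left out, and no spot of the genes reported was among them. From the intensity, log2 signals minus the array's 75th percentile were computed for 41174 probes. A probe needed the scanner's flag for a signal well above background on every array of some group of 3 (29203 probes kept), and the probe with the highest mean stood for a gene (19299 genes). Names came from RefSeq accessions (assembly GRCm38.p6) for 28223 probes and from the file for 12951. Probe coordinates are those of the files, on mm9.

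Differences were fitted with limma 3.58.1 in R 4.3.3 (lmFit, eBayes) over all 18 arrays. The model had terms for the 6 groups and for the run and 11 residual degrees of freedom. The procedure was run on simulated data with independent noise and no run or slide effect, so that trial does not cover those effects. The genes reported, the lists and the alternatives were chosen with earlier results of these data known. Named are the 10 genes, Elavl2, up to 5 other primordial germ cell and pluripotency genes per comparison of genotypes with the smallest adjusted p, 9 germ cell reference genes and the 3 genes most like each called gene, of which part is printed. Whether replicate numbers pair samples was checked by correlating, over genes, how far arrays with the same number lay from the mean of their group. All 3 pairs of E17.5 were over 0.1 (0.12, 0.40 and 0.45), at the other stages not, and the labels give no shared source. Same-numbered E17.5 arrays also shared the run, and replicate 3 the slide, so pairing cannot be told from run and slide there. Replicate 3 of E17.5 KO and of E15.5 KO, both on slide 3, correlated at 0.42. Replicates correlated at 0.965 to 0.9948 and shared no identical value. Python 3.11.15 with matplotlib 3.10.9 made the figures.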

Additional observations from a re-analysis of the deposited data

Results flagged for a closer look

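These 7 results stand here because the effect of the knockout differed between stages in a test of the difference itself (limma, KO change minus WT change). Over the step from E17.5 to P0 the difference was -2.96 for Pou5f1, -3.04 for Tfap2c, -1.38 for Dppa5a, -1.23 for Esrrb, -0.96 for Prdm1 and 2.12 for Sox2. The Sox2 value came from signals not well above background on any of the 12 arrays of those stages. Over the step from E15.5 to E17.5 the difference was -2.14 for Esrrb, whose KO minus WT change was 1.38 at E15.5 and -0.76 at E17.5. Of the groups in that step, only E15.5 KO had Esrrb well above background on all 3 arrays. At P0, where no KO array was well above background, Esrrb was at least 1.62-fold lower in KO ovaries. Groups of 3 arrays are too small for a test of single outlying arrays.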

How the results depend on the processing

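Of 33 changes of single genes called, 16 kept their call in every alternative run, among them the 5 to a lower signal in P0 KO ovaries. Of 976 alternative values, 835 kept the call, 141 ended it and 0 turned its direction. Of 240 alternative group levels, 192 lay within 1 SD of the reported level. The cause of the shifts below was not tested. The count of called genes at E15.5 (reported as 1) was 0 without the run term, with only the stages compared and with the replicate block, and 0 to 2 when arrays were left out in turn. At E17.5 (0) leaving out an array gave 0 to 1, and at P0 (6) it gave 6 to 7. The P0 count was 5 with normexp, and 5 with only probes well above background on at least 9 arrays. Averaged over the 3 stages, 4 genes were called, and 2 with array median scaling, without the filter, with the slide as a random block and with the replicate block, and 2 to 4 with an array left out. For WT from E15.5 to E17.5 (2) the count was 1 with normexp and with only the stages compared, 0 without the run term and with the replicate block, and 0 to 4 with an array left out. For KO in that step (4) it was 2 without the filter and with the replicate block, 5 with normexp, and 2 to 4 with an array left out. For the genotype difference in that step (1) it was 0 with normexp, array median scaling, no filter, no run term, the slide block, only the stages compared and the replicate block, and 0 to 2 with an array left out. Over birth, leaving out an array gave 6 to 8 in WT (7), 1 to 4 in KO (2) and 5 to 7 for the genotype difference (6), which the replicate block brought to 3 (Dppa5a, Esrrb and Sox2 lost). With normexp the genotype difference was called for 4 genes (Esrrb and Sox2 lost).

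Among changes that were not called, 38 of 1390 alternative values had the opposite sign, in 15 changes. The ranges with 1 array left out in turn were, for KO minus WT, -0.07 to 1.37 for Utf1 at E15.5, -0.10 to 0.49 for Tfap2c, -0.33 to 0.14 for Dppa5a, -0.36 to 1.06 for Lin28a and -0.04 to 0.11 for Prdm1 at E17.5, -0.17 to 0.05 for Lin28a at P0 and -0.23 to 0.25 for Utf1 over the stages. From E15.5 to E17.5 they were -0.31 to 1.18 for Pou5f1 and -0.45 to 0.24 for Tfap2c in WT ovaries, -1.20 to 0.29 for Pou5f1 and -0.34 to 1.40 for Lin28a in KO ovaries, and -1.05 to 0.39 for the genotype difference of Utf1. Over birth they were -0.24 to 0.25 for Esrrb and -0.19 to 0.09 for Utf1 in KO ovaries, and -1.12 to 0.30 for the genotype difference of Lin28a. Without slide 3 the sign turned for Utf1 at E15.5 (-0.07), over the stages (-0.26) and in the genotype difference from E15.5 to E17.5 (0.32), and for Tfap2c (-0.10) and Dppa5a (0.14) at E17.5. It also turned for Lin28a at P0 with array median scaling (0.08), for Prdm1 at E17.5 with normexp (0.00), for Lin28a in KO ovaries from E15.5 to E17.5 with normexp (-0.01), quantile normalization (-0.01) and no run term (-0.15), and for Esrrb in KO ovaries over birth with the same (-0.02, -0.04 and -0.34).

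Over all genes, the count called at E15.5 (312) was 207 without the filter, 144 with the slide block, 40 without the run term, 0 with only the E15.5 arrays and 19 with the replicate block. At E17.5 (802) it was 463, 385 with array median scaling, 350 without the run term, 1 with only the E17.5 arrays, 167 with the replicate block and 188 without slide 3. Same-numbered samples share only a number at E15.5 and P0, and the replicate block called 3106 (against 5090) in WT and 2336 (against 4199) in KO ovaries from E15.5 to E17.5, and 1063 (against 2008) for the genotype difference over birth, which was 1031 without the run term. The genotype difference from E15.5 to E17.5 (59) was 1 with the replicate block, 100 with normexp and 0 to 264 with an array left out, highest without E17.5 KO replicate 1. Leaving out an array gave 2512 to 5315 for KO in that step, 4585 to 7328 (against 7182) for KO over birth and 1048 to 2692 for the genotype difference over birth, lowest without E17.5 KO replicate 3, E17.5 KO replicate 2 and P0 WT replicate 2. With array median scaling the median change of all genes was 0.14 for KO minus WT at P0, against 0 as reported. It was -0.18 for WT from E15.5 to E17.5 (0.03 as reported) and -0.15 for WT over birth (0.01 as reported). Signal over background limits Esrrb, Sox2, Nanog and, in P0 KO ovaries, Tfap2c.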

Other observations

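The arrays on which Utf1 stood out carried other genes of the same kind. The 3 genes most like Utf1 over the 18 arrays were Trp73 (r = 0.967), Gpr50 (0.966) and Olfr570 (0.960). They were picked by that likeness, so their levels on slide 3 are not separate evidence. On the 3 arrays of slide 3 their log2 signals were -2.13 to -1.52, -3.62 to -3.13 and -1.88 to -1.41, against at most -2.81, -4.29 and -2.67 on the other 15 arrays. In all, 297 genes were at least 0.5 higher in log2 signal on each of these arrays than on any other array, among them Utf1 and none of the 7 other genes reported here.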
